A study of Mus musculus with 10 samples.

Results

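The conjugation enzymes described here are the glutathione S-transferases (GST), UDP-glucuronosyltransferases (UGT) and cytosolic sulfotransferases (SULT) of mouse liver. Members were the protein-coding genes named Gsta, Gstk, Gstm, Gsto, Gstp, Gstt or Gstz with a number, Ugt1a, Ugt2a, Ugt2b, Ugt3a, or Sult with a number, with at least 10 counts summed over 10 libraries. Of 64 genes with such names, 55 qualified out of 55487 genes in the table: 21 GST, 19 UGT and 15 SULT genes. The members with the fewest counts were Ugt1a8 (19) and Sult2a2 (23), and the genes just below the minimum were Sult6b1 (7) and Sult3a2 (6).

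The study asked how loss of arginase 2 from hepatocytes changes the liver transcriptome of old mice. Liver RNA, selected with oligo-dT, came from mice of strain C57B/6J (as the labels spell it) aged 22 months that ate normal chow and were housed together. The 5 Flox libraries are from Arg2fl/fl mice, which carry floxed Arg2 alleles, and the 5 LKO libraries are from Arg2LKO littermates, in which Arg2 is deleted in hepatocytes. The sources used here name neither the Cre line behind the deletion, nor the sex of the mice, nor any pooling.

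Conjugation makes foreign compounds and the body's own steroids, bilirubin and bile acids more water-soluble, so that they can leave the liver in bile or blood. GSTs attach glutathione to electrophilic compounds, mostly in the cytosol. UGTs sit in the endoplasmic reticulum and transfer glucuronic acid from UDP-glucuronate, whereas SULTs transfer sulfate from the donor PAPS to hydroxyl and amine groups. Many of these genes are induced through the sensors Nrf2, the Ah receptor, CAR and PXR, and hepatocytes are the main site of their expression in liver.

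Each library held 43331354 to 54951415 counts. Arg2 had 9 counts over the 5 Flox libraries and 10 over the 5 LKO libraries, so these counts do not check the deletion. Per library, Xist had between 0 and 16 counts and Ddx3y, on the Y chromosome, between 1607 and 2903, the pattern of male mice. Summed hepatocyte markers (Alb, Apoa1, Ttr, Cps1, Serpina1a and Cyp2e1, all found in every library) were at 58659 to 128126 CPM (counts scaled to the library total, the usual counts-per-M unit) in Flox and 127050 to 154682 CPM in LKO. Of 5 cholangiocyte markers, 4 had counts in every library, and their sum was 10.9 to 18.6 CPM in Flox and 11.1 to 18.5 CPM in LKO. The 5 Kupffer cell markers summed to 61.4 to 341 CPM in Flox and 39.1 to 266 CPM in LKO, the 5 sinusoidal endothelial markers to 63.8 to 93.1 and 55.3 to 80.8 CPM, and the 5 stellate cell and fibroblast markers to 83.7 to 203 and 127 to 182 CPM. The 4 T cell markers summed to 1.90 to 4.25 CPM in Flox and 0.832 to 2.13 CPM in LKO, the 3 B and plasma cell markers to 3.54 to 21.9 and 5.79 to 12.5 CPM, and the 4 neutrophil markers to 0.672 to 16.5 and 1.47 to 17.2 CPM. The 5 erythroid markers summed to 228 to 414 CPM in Flox and 446 to 868 CPM in LKO, without overlap. None of these markers was at 0 in all libraries.

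The libraries Flox 2 and Flox 3 stood apart. The 16 acute phase genes, whose products the liver releases during inflammation, summed to 108126 CPM in Flox 2 and 145250 CPM in Flox 3, against 60220 CPM in Flox 4 and 20778 to 42541 CPM in the other 7 libraries. Most conjugation enzymes were low in the same libraries, with 36 of the 46 tested members lowest in Flox 2 or Flox 3. So were the hepatocyte markers, at 83683 CPM in Flox 2 and 58659 CPM in Flox 3 against at least 114242 CPM in every other library, and the stellate cell and fibroblast markers, at 83.8 and 83.7 CPM against at least 127 CPM. The family counts and the members closest to the test are therefore given with and without Flox 2 and 3. The part of the acute phase, hepatocyte, stellate cell and erythroid genes in these results was not tested.

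No conjugation enzyme gene passed the test between LKO and Flox livers. By edgeR's quasi-likelihood test with Benjamini-Hochberg adjustment over 15894 genes, 0 of the 46 members tested passed an adjusted p of 0.05, as did 0% of all genes, with a smallest adjusted p of 0.652. The estimated log2 fold change (LKO over Flox) was above 0 for 41 of the 46 members and below 0 for 5, whereas it was above 0 for 48.4% of all genes tested. The count was 19 of 20 for GST, 16 of 18 for UGT and 6 of 8 for SULT genes. At an unadjusted p under 0.05, 4 members were higher and 0 lower, beside 3.17% of all genes higher and 4.33% lower. DESeq2 and limma-voom also called 0 members, though DESeq2 gave an adjusted p to only 39 of the 46. That unadjusted count was 7 with limma-voom (3.57% of all genes higher), 12 without Flox 1 (4.2%), 8 without Flox 5 (5.25%), 2 without Flox 2 (2.9%) and 2 without Flox 3 (1.68%). The median log2 fold change was 0.22 for GST, 0.32 for UGT and 0.27 for SULT members, against -0.01 for all genes.

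Without Flox 2 and 3, 14 of the 46 members turned sign, 10 of them GST genes. The estimate was then above 0 for 9 of 20 GST members (median -0.03), 15 of 18 UGT members (median 0.14) and 5 of 8 SULT members (median 0.12), and for 48.9% of all genes. A difference between the families was not tested. With all libraries, the lowest of the 10 values lay in Flox 2 or Flox 3 for 15 of 20 GST, 16 of 18 UGT and 5 of 8 SULT members. The share was 26.2% of all genes tested. Leaving out libraries with low values raises the Flox mean, so lower estimates for such members follow from the choice of libraries. Flox 4, with an acute phase sum of 60220 CPM, stayed in that fit. The GST median was 0.13 without Flox 2 alone, 0.14 without Flox 3, 0.43 without Flox 1 and 0.35 without Flox 5, and the UGT median was 0.50 without Flox 5. In bulk RNA, fewer cells of a type and less RNA per cell cannot be told apart.

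**Figure D1:**
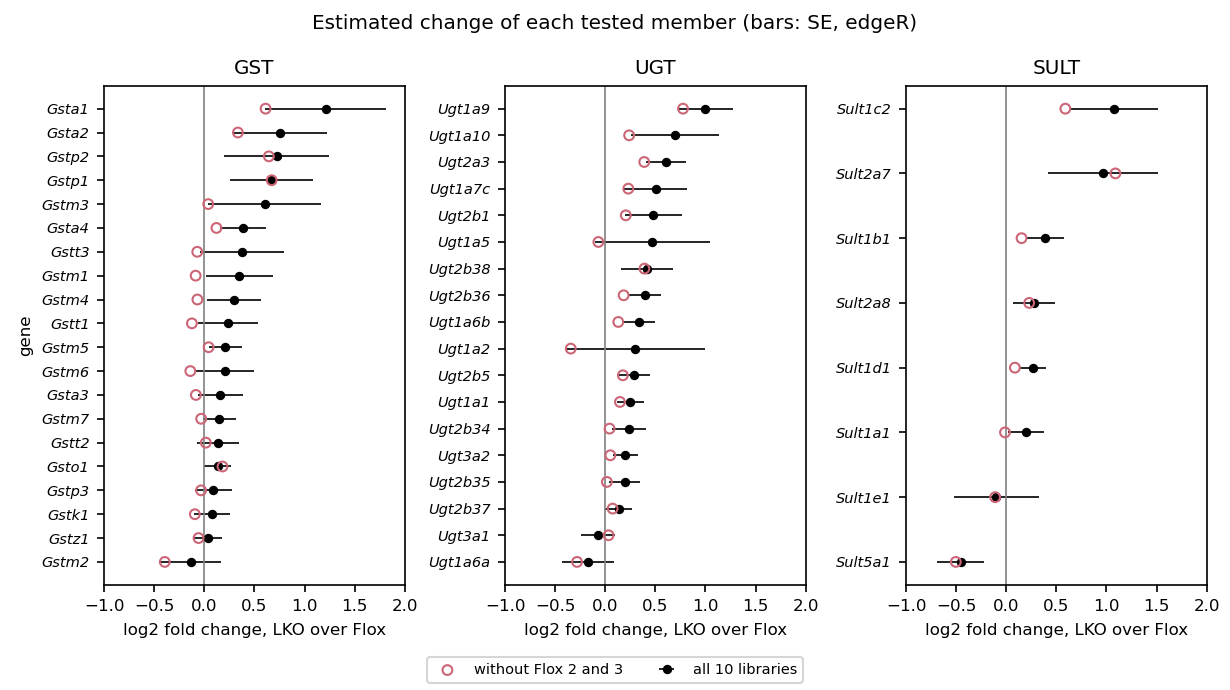
Log2 fold change of LKO over Flox for the 46 tested members, by family (black dots and SE bars, all 10 libraries, edgeR) and the same without Flox 2 and 3 (open red circles). Black dots lie right of 0 for 41 members, and without Flox 2 and 3 for 9 of 20 GST, 15 of 18 UGT and 5 of 8 SULT members.

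Summed over its 21 members, the GST family took 0.581% of all counts. The sum was 7394, 3540, 3502, 5632 and 6408 CPM in Flox 1 to 5 and 6448, 5781, 6346, 5994 and 7090 CPM in LKO 1 to 5. Flox 2 and 3 were the lowest of the 10 livers and Flox 1 the highest, so the LKO values lay within the Flox range. The UGT sum was 2230, 1696, 1461, 1978 and 2460 CPM in Flox and 2564, 2306, 2245, 2856 and 2114 CPM in LKO. The SULT sum was 857, 704, 575, 722 and 846 CPM in Flox and 919, 967, 719, 945 and 756 CPM in LKO. The groups overlapped for each sum.

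**Figure D2:**
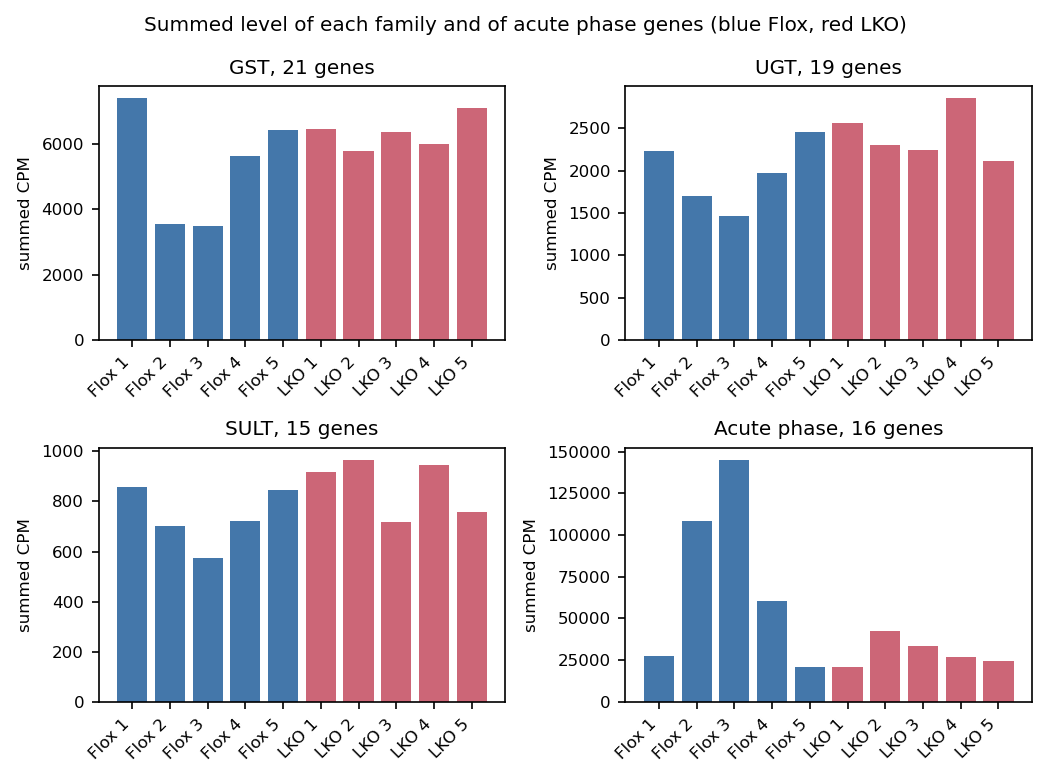
Summed CPM of the GST, UGT and SULT members and of 16 acute phase genes in each library (bars; blue Flox, red LKO). Flox 2 and Flox 3 have the lowest GST sums (3540 and 3502 CPM) and the highest acute phase sums (108126 and 145250 CPM).

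Per transcript length the families were led by few genes. Levels are CPM per kilobase of the longest GENCODE M21 transcript, as mean ± SD of the 10 libraries. Gstm1, the main mu class enzyme, was at 1645 ± 575, Gstp1, a pi class enzyme known to be higher in male mouse liver, at 702 ± 397, and Gsta3, an alpha class enzyme known for detoxifying aflatoxin epoxide, at 467 ± 113. The ranges of Gstm1 (672 to 2395) and Gstp1 (348 to 1400) overlapped, whereas all values of Gsta3 (281 to 645) lay below those of Gstm1. That separation depends on dividing by transcript length. In CPM, Gsta3 (785 to 1800) and Gstm1 (866 to 3088) overlapped. Per kilobase of the union of exons, the means were 1440 for Gstm1, 372 for Gstp1 and 300 for Gsta3. Gstt1 of the theta class followed at 258 ± 86.0, and Gstz1, the maleylacetoacetate isomerase of tyrosine breakdown, at 192 ± 22.9. At the other end were Gsta1 at 3.79 ± 2.33 and Gsto2 at 0.0933 ± 0.0454.

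Among UGTs, Ugt2b5 was at 265 ± 51.9, Ugt2b36 at 183 ± 37.8 and Ugt2b1 at 118 ± 38.0 CPM per kilobase, with overlapping ranges from each to the next. Ugt2a3 (94.3 ± 25.4), Ugt3a2 (89.7 ± 11.1) and Ugt2b34 (71.7 ± 13.6) were likewise not separated by their spread. The Ugt1a genes lie at the same locus and share their last exons, and 50.3% to 82.7% of their exon bases belonged to other genes as well. Ugt1a1, the bilirubin-conjugating enzyme, was at 23.6 CPM per kilobase of its whole transcript and at 136 CPM per kilobase of its unshared exon bases. Levels of the Ugt1a genes therefore depend on how reads in shared exons were counted, a setting the sources do not name.

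Among SULTs, Sult1a1, which sulfates phenols, was at 228 ± 44.0 and Sult2a8, a bile acid sulfotransferase, at 182 ± 46.9 CPM per kilobase, with overlapping ranges. Sult1d1, which acts on catecholamines, was at 21.7 ± 3.28, below every value of Sult2a8. Sult1e1 was at 0.416 ± 0.183. Sult2a7 (11.2), Sult1b1 (7.42), Sult5a1 (2.67) and Sult1c2 (2.10) lay between these. The remaining 7 SULT genes, among them the female-biased Sult2a1, Sult2a2 and Sult3a1, were below 0.2 and too low to test.

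**Figure D3:**
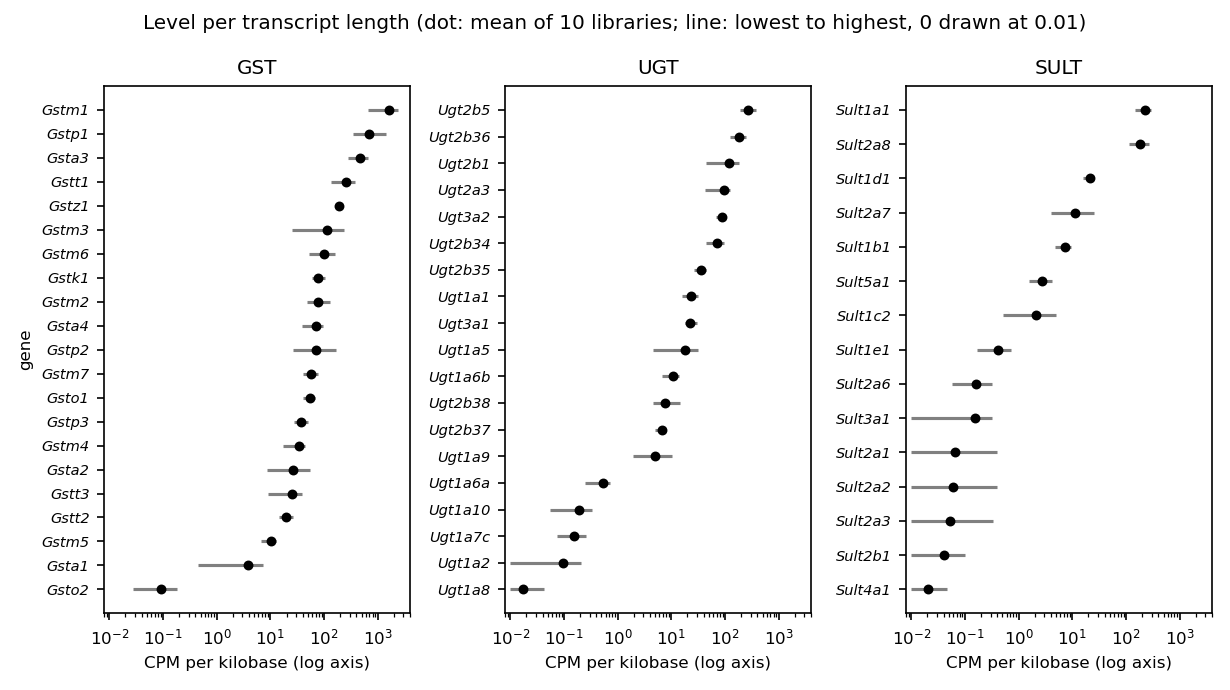
Level of each of the 55 members in CPM per kilobase of the longest transcript, on a log axis (dot, mean of 10 libraries; line, lowest to highest library, with 0 drawn at 0.01). Gstm1 (1645), Ugt2b5 (265) and Sult1a1 (228) head the GST, UGT and SULT families.

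The mu class genes form a cluster on chromosome 3 (Gstm5 at 107895821 to Gstm4 at 108044894, GRCm38), and all 7 had their lowest value in Flox 2 or 3. Gstm1 was at 3002, 921, 866, 2323 and 2320 CPM in Flox 1 to 5 and at 2419, 1992, 2259, 2015 and 3088 CPM in LKO 1 to 5. Flox 2 and 3 were below every other liver, and the other 3 Flox libraries lay within the LKO range. Its log2 fold change was 0.35 ± 0.34 (SE; adjusted p = 0.770 by edgeR) and -0.09 ± 0.18 without Flox 2 and 3. Gstm3, a close relative with 28.8% of its 50-base windows shared with other genes, mainly Gstm1, was at 237, 35.8, 33.3, 122 and 178 CPM in Flox and 162, 125, 188, 123 and 309 CPM in LKO. Its highest value was 9.28 times its lowest, with Flox 2 and 3 again lowest. For Gstm3 the log2 fold change was 0.60 ± 0.56 (adjusted p = 0.766), 0.04 without Flox 2 and 3, 0.34 without LKO 5 and 1.03 without Flox 1. Gstm2 was the only GST member with an estimate below 0 (-0.13 ± 0.30).

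The 4 alpha class genes were likewise lowest in Flox 2 or 3. Gsta3 was at 1800, 785, 1028, 1074 and 1543 CPM in Flox and 1633, 1432, 1092, 1219 and 1438 CPM in LKO. The LKO values lay within the Flox range, and the log2 fold change was 0.16 ± 0.23 (adjusted p = 0.845), or -0.08 without Flox 2 and 3. Gsta2, an inducible alpha class gene, was at 33.4, 7.52, 9.28, 10.3 and 25.0 CPM in Flox and 47.1, 27.9, 26.9, 18.0 and 22.0 CPM in LKO. Here Flox 4 was low as well, and the highest value was that of LKO 1. Gsta2 shares 49.8% of its 50-base windows with other genes, mainly Gm10639. Its log2 fold change of 0.76 ± 0.46 (adjusted p = 0.671) was 0.34 without Flox 2 and 3 and 0.48 without LKO 1.

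Gsta1 had the widest range of the tested members with counts in every library. It was at 4.42, 0.473, 0.401, 1.62 and 3.16 CPM in Flox and 4.57, 3.51, 5.75, 2.91 and 6.33 CPM in LKO, so that its highest value was 15.8 times its lowest. Its log2 fold change was 1.21 ± 0.61 (adjusted p = 0.653), or 0.61 without Flox 2 and 3. Of its 50-base windows 90.5% occur in other genes, mainly Gsta2, so reads may be split between them. Gsta4, which clears the lipid peroxidation product hydroxynonenal and shares no such window, was at 93.4, 49.0, 37.3, 51.1 and 77.5 CPM in Flox and 79.5, 90.7, 86.7, 71.4 and 67.4 CPM in LKO (log2 fold change 0.39 ± 0.23, edgeR adjusted p = 0.670, or 0.12 without Flox 2 and 3).

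Of the theta class, Gstt1 was at 265 ± 114 CPM in Flox against 305 ± 79.4 CPM in LKO and Gstt3 at 43.3 ± 25.8 against 55.1 ± 17.0 CPM. Their log2 fold changes of 0.24 and 0.38 were -0.12 and -0.07 without Flox 2 and 3. Gstz1 varied least of the GST members, from 506 to 684 CPM over the 10 livers, with means of 583 ± 81.2 CPM for Flox against 583 ± 65.7 CPM for LKO (log2 fold change 0.04 ± 0.14, edgeR adjusted p = 0.946). Its sign turned without Flox 2, Flox 4 or LKO 1. Gstk1, a kappa class enzyme of mitochondria and peroxisomes, was at 107 ± 26.8 against 110 ± 16.9 CPM. Gsto1, an omega class enzyme with thiol transferase activity, was at 62.0 ± 7.16 against 66.3 ± 12.5 CPM.

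The pi class genes Gstp1 and Gstp2 followed another order of libraries. Gstp1 (chromosome 19, 4035407 to 4037985) was at 285, 593, 318, 646 and 423 CPM in Flox and at 288, 580, 1150, 1132 and 347 CPM in LKO. LKO 3 and 4 stood above all other livers, while LKO 1 and 5 were near the lowest Flox values. Gstp2, its neighbour (4040285 to 4046023), was at 24.7, 51.0, 28.7, 68.3 and 43.9 CPM in Flox and 21.5, 48.3, 133, 115 and 28.8 CPM in LKO. The same libraries were high and low for both genes, which share sequence: 54.3% of the 50-base windows of Gstp2 and 33.7% of those of Gstp1 occur in other genes, mainly in each other. Gstp3, without a shared window, was at 22.0 to 36.1 CPM in all livers but Flox 4 (19.4 CPM), and LKO 3 and 4 were not high.

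The log2 fold change of Gstp1 was 0.67 ± 0.41 and that of Gstp2 0.72 ± 0.52 (adjusted p = 0.671 and 0.708). Without Flox 2 and 3 the estimates were 0.67 and 0.64. For Gstp1 the estimate was 0.42 without LKO 3 and 0.42 without LKO 4. The RefSeq upstream sequences of both genes (GRCm38.p6, the 250 bases before the start, minus strand) are shown because the genes vary together and their promoters are alike, with 207 of 235 aligned bases identical (88.1%). Capitals mark TGAGTCA, the letters of an AP-1 site, a motif chosen after the sequences were read.
Gstp1, chr19:4037913-4038162: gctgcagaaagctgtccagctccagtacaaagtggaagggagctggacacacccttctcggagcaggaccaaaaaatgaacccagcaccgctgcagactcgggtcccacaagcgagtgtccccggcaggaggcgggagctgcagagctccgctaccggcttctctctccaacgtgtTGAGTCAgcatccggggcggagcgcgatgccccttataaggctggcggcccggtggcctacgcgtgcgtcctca
Gstp2, chr19:4042222-4042471: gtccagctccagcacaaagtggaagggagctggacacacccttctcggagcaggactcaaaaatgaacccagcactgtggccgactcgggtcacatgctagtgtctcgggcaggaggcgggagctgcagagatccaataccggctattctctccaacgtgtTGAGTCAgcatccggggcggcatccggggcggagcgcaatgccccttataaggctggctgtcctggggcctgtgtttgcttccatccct

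The starts used here are those of RefSeq, whereas the gene positions above are the outermost ends in GENCODE M21. GENCODE's outermost start lies 73 bases upstream of the RefSeq start for Gstp1, inside the printed window, and 3802 bases upstream for Gstp2. The match begins 74 bases before the RefSeq start of Gstp1 and 89 bases before that of Gstp2. Searched on both strands, TGAGTCA occurred in 5 of the 47 members with a promoter entry and in 4.46% of all 32851 RefSeq promoters, each searched over the 250 bases before its start. Members were counted as genes and the background as promoter windows, so these shares are not in like units. The 5 members include Gstp1 and Gstp2, whose sequences were read before the motif was chosen. The antioxidant response letters TGACNNNGC were in 3 members (Gsta3, Gstm5 and Gstm7) and 10.2% of all windows, and the STAT letters TTCNNNGAA in 4 members and 7.02% of windows. The reverse complement of TGAGTCA can begin a TGACNNNGC match, and Gstm5 held both. The Gstp1 and Gstp2 sequences held no match to the other 3 motifs searched. These matches describe letters in a short window only.

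**Figure D4:**
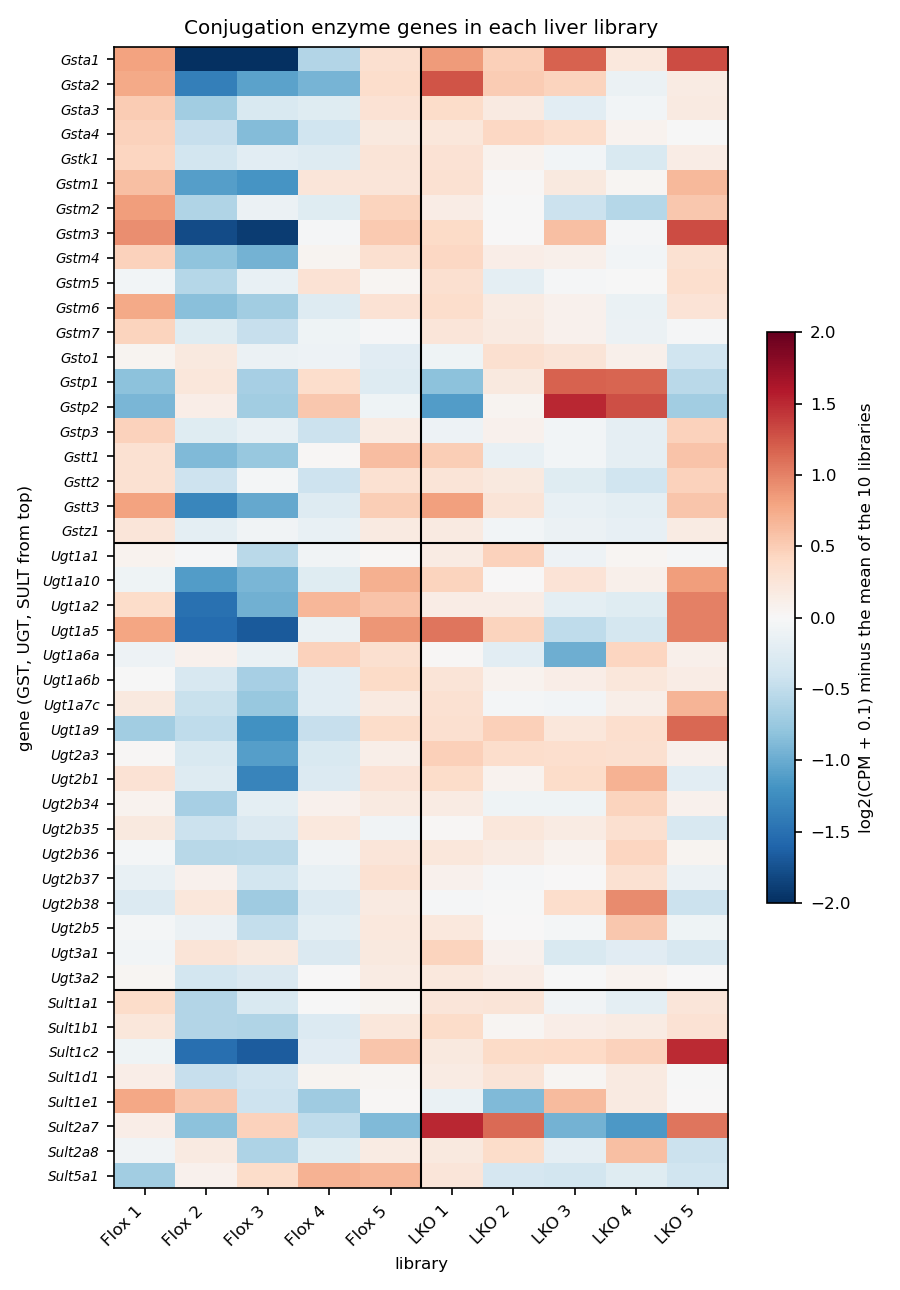
Log2(CPM + 0.1) of the 46 tested members minus each member's mean over the 10 libraries (columns; rows grouped as GST, UGT and SULT; colour saturates at 2). Flox 2 and Flox 3 are blue for most rows, while Gstp1 and Gstp2 are red in LKO 3 and LKO 4 and Sult2a7 is red in LKO 1, LKO 2 and LKO 5.

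Of the UGT genes, Ugt1a9 and Ugt2a3 had the smallest p-values of all members. Ugt1a9, which conjugates phenols (chromosome 1, 88070800 to 88218997), was at 6.17, 7.03, 4.27, 7.26 and 12.9 CPM in Flox and 12.5, 13.9, 11.7, 12.7 and 22.3 CPM in LKO. Only Flox 5 reached into the LKO range. The log2 fold change was 1.0 ± 0.27 (unadjusted p = 0.00382, edgeR adjusted p = 0.652), or 0.78 ± 0.28 without Flox 2 and 3 (unadjusted p = 0.0222, adjusted p = 0.999). Of its exon bases, 59.9% belong to other genes too.

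Ugt2a3 (chromosome 5, 87324972 to 87337195) was at 195, 155, 89.3, 156 and 209 CPM in Flox and 266, 244, 241, 239 and 203 CPM in LKO. LKO 5 lay below Flox 5, and the other 4 LKO values were above all Flox values. Its log2 fold change was 0.61 ± 0.20 (unadjusted p = 0.00966, edgeR adjusted p = 0.652), or 0.39 ± 0.14 without Flox 2 and 3 (unadjusted p = 0.0174, adjusted p = 0.999). Ugt1a9 and Ugt2a3 were the 2 members with an unadjusted p under 0.05 in that fit, where 1.67% of all genes were higher at that level. No member of the 46 had groups without overlap in CPM in the higher direction, beside 0.327% of all genes.

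The RefSeq upstream sequences of these genes (GRCm38.p6, 250 bases before the start; Ugt1a9 plus strand, Ugt2a3 minus strand) are shown because these genes came nearest to the test. Capitals mark GTTAAT or its reverse complement, the letters of an arm of the palindromic HNF1 site.
Ugt1a9, chr1:88070529-88070778: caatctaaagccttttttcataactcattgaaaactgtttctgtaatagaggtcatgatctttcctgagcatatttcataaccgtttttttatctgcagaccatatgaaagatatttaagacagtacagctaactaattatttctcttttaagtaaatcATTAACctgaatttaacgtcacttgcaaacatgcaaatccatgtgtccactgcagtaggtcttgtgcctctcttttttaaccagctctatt
Ugt2a3, chr5:87337196-87337445: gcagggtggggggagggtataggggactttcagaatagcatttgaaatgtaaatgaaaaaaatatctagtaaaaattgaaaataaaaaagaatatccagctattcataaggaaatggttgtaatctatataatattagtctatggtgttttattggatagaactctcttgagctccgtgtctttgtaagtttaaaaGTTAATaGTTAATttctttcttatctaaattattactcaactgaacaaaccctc

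The Ugt2a3 sequence holds 2 matches, 54 and 47 bases before the RefSeq start, and that of Ugt1a9 holds 1, 91 bases before it. GTTAAT on either strand occurred upstream of 6 of 17 UGT, 4 of 11 SULT and 1 of 19 GST genes, and in 6.43% of all windows, a background counted by window rather than by gene. No match with the antioxidant response letters was found in a UGT promoter. These counts carry no test.

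The other Ugt2 genes lie in the same stretch of chromosome 5, and all 8 tested Ugt2 genes had estimates above 0 with and without Flox 2 and 3 (medians 0.34 and 0.18). Ugt2b5, the most abundant of them, was at 471, 448, 349, 423 and 564 CPM in Flox and 559, 488, 473, 703 and 455 CPM in LKO (log2 fold change 0.29 ± 0.16, edgeR adjusted p = 0.660, or 0.18 without Flox 2 and 3 and 0.17 without LKO 4). It shares 41.7% of its 50-base windows with other genes, mainly Ugt2b38. Ugt2b36 was at 328, 231, 233, 320 and 401 CPM in Flox and 397, 379, 356, 456 and 350 CPM in LKO. Only Flox 5 of the Flox libraries lay within the LKO values of Ugt2b36, whose log2 fold change was 0.39 ± 0.16 (unadjusted p = 0.0322, edgeR adjusted p = 0.652), or 0.18 without Flox 2 and 3. Ugt2b1, one of the markers of these families, was at 350, 239, 115, 236 and 346 CPM in Flox and 371, 302, 368, 465 and 246 CPM in LKO. Its low point was Flox 3, and its log2 fold change of 0.48 ± 0.28 (adjusted p = 0.668) was 0.20 without Flox 2 and 3. Ugt2b34 was at 288 ± 61.1 against 330 ± 53.7 CPM (0.23, or 0.04 without Flox 2 and 3).

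The Ugt1a genes did not move alike between libraries. Ugt1a5 was at 56.3, 11.2, 10.1, 29.8 and 59.9 CPM in Flox and 68.6, 44.1, 22.8, 25.5 and 65.9 CPM in LKO, a 6.78-fold range with its low points in Flox 2 and 3. Its log2 fold change was 0.47 ± 0.57 (adjusted p = 0.821), or -0.07 without Flox 2 and 3. Ugt1a1 varied less, from 35.7 to 54.6 CPM in Flox and from 48.2 to 71.3 CPM in LKO (log2 fold change 0.25 ± 0.14, adjusted p = 0.657, or 0.15 without Flox 2 and 3). Ugt1a6b, a form that acts on planar phenols, was at 22.5 ± 6.26 against 27.5 ± 1.44 CPM (0.33 ± 0.16, edgeR adjusted p = 0.652, SD over n = 5, or 0.13 without Flox 2 and 3). Ugt1a6b shares 79.8% of its 50-base windows with other genes, mainly Ugt1a6a, so reads may be split between them. Ugt1a6a and Ugt3a1 were the 2 UGT genes with estimates below 0 (-0.17 and -0.07, or -0.28 and 0.03 without Flox 2 and 3).

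Of the sulfotransferases, Sult1a1 was at 395, 205, 249, 306 and 318 CPM in Flox and 362, 365, 293, 269 and 364 CPM in LKO. Its LKO values lay within the Flox range (log2 fold change 0.20 ± 0.18, edgeR adjusted p = 0.757, or -0.01 without Flox 2 and 3). Sult1b1, which sulfates thyroid hormones, was at 17.0 ± 4.89 against 21.8 ± 1.95 CPM, and Sult1d1 at 48.4 ± 8.84 against 56.8 ± 4.39 CPM (log2 fold changes 0.39 ± 0.18 and 0.27 ± 0.13, or 0.15 and 0.09 without Flox 2 and 3). Both adjusted p-values were 0.652 by edgeR.

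Sult1c2 was at 3.05, 1.07, 0.957, 2.77 and 4.82 CPM in Flox and 3.71, 4.23, 4.28, 4.50 and 9.32 CPM in LKO. Flox 5 alone lay within the LKO range, and LKO 5 was far above the rest. For Sult1c2 the log2 fold change was 1.07 ± 0.44 (unadjusted p = 0.0336, edgeR adjusted p = 0.652), 0.59 without Flox 2 and 3 and 0.76 without LKO 5. Sult5a1 went the other way, at 5.92, 10.2, 12.5, 15.7 and 15.3 CPM in Flox and 11.4, 7.62, 7.44, 8.19 and 7.35 CPM in LKO (-0.46 ± 0.23, adjusted p = 0.654, or -0.50 without Flox 2 and 3). Its low Flox value was that of Flox 1.

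The Sult2a genes, a chromosome 7 cluster of hydroxysteroid and bile acid sulfotransferases several of them known to be higher in female mouse liver, did not share one order of libraries. Sult2a8 was at 363, 431, 248, 321 and 426 CPM in Flox and 434, 489, 335, 578 and 281 CPM in LKO, with LKO 4 highest and Flox 3 lowest (log2 fold change 0.28 ± 0.21, edgeR adjusted p = 0.715). The Sult2a8 estimate was 0.14 without LKO 4, 0.17 without Flox 3 and 0.23 without Flox 2 and 3. Sult2a7 was at 9.36, 4.77, 11.7, 5.97 and 4.59 CPM in Flox and 24.4, 18.8, 4.39, 3.78 and 18.0 CPM in LKO. LKO 1, 2 and 5 were above all Flox livers, whereas LKO 3 and 4, the livers highest in Gstp1, were below them. The log2 fold change of Sult2a7 was 0.97 ± 0.55 (adjusted p = 0.661), or 1.09 without Flox 2 and 3 and 0.65 without LKO 1.

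Sult2a1, Sult2a2 and Sult2a3 were nearly absent but for LKO 5, which held 22, 16 and 18 counts of them. In the other 9 livers they had at most 4, 3 and 5 counts. Sult2a2 shares 62.1% of its 50-base windows with other genes, mainly Sult2a1, so reads of Sult2a1 and Sult2a2 may not be independent. Sult2a3 shares 8.36%, mainly with Sult2a4. Sult2a1, Sult2a2 and Sult2a3 were too low to test. Where no read was counted, the limit is 3 counts (0.0546 to 0.0692 CPM), which covers counting error only. The estrogen sulfotransferase Sult1e1 was at 0.255 to 0.884 CPM in Flox and 0.213 to 0.794 CPM in LKO, with 0.740 and 0.334 CPM in Flox 2 and 3.

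**Figure D5:**
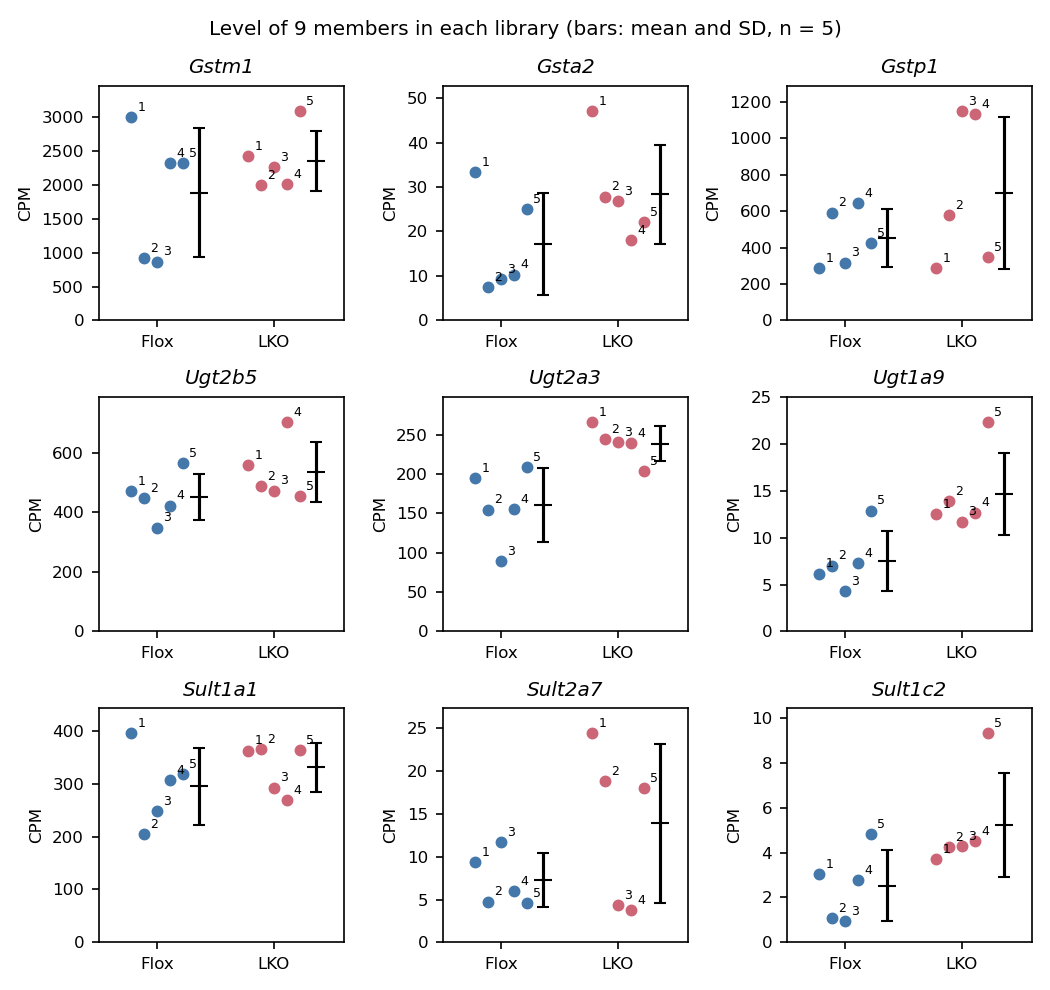
CPM of 9 members in each library (points, numbered by column; black marks, mean and SD, n = 5 per group; each axis starts at 0). Gstm1 and Sult1c2 are lowest in Flox 2 and 3, Gstp1 is highest in LKO 3 and 4, and Ugt2a3 overlaps only through LKO 5 (203 CPM) and Flox 5 (209 CPM).

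Genes that supply, transport and regulate conjugation were read from the same fit, and none passed it. All 4 genes of UDP-glucuronate supply and glucuronide hydrolysis had estimates above 0 (median 0.29, or 0.13 without Flox 2 and 3). Ugp2, which makes UDP-glucose, was at 152 ± 54.1 against 216 ± 28.6 CPM (log2 fold change 0.54 ± 0.22, or 0.26 without Flox 2 and 3), and the lysosomal glucuronidase Gusb at 24.9 ± 4.78 against 31.4 ± 2.29 CPM (0.37 ± 0.13, or 0.19). All 10 transporters of conjugates and organic anions also had estimates above 0 (median 0.31), against 6 of 10 without Flox 2 and 3 (median 0.08). The efflux pump Abcg2 was at 48.9 ± 10.6 against 60.1 ± 6.63 CPM and the uptake carrier Slco1a4 at 28.1 ± 17.6 against 48.8 ± 6.99 CPM (log2 fold changes 0.33 ± 0.15 and 0.83 ± 0.47, or 0.20 and 0.29 without Flox 2 and 3).

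Of 9 genes of sulfate donor supply and sulfatases 8 had estimates above 0 (median 0.14, or 0.00 without Flox 2 and 3), with Papss1, a PAPS synthase, at 19.1 ± 2.44 against 21.3 ± 2.13 CPM and Impad1, a nucleotide phosphatase, at 32.5 ± 2.16 against 35.0 ± 4.84 CPM. Of 10 glutathione supply genes 4 were above 0 (median -0.01). Glutathione synthetase Gss was at 49.5 ± 2.91 against 57.1 ± 5.37 CPM (0.24 ± 0.08, and 0.24 without Flox 2 and 3), and 5-oxoprolinase Oplah at 139 ± 36.3 against 101 ± 17.0 CPM (-0.43 ± 0.17, and -0.18 without Flox 2 and 3). Of 6 microsomal glutathione transferases and relatives 4 were above 0 (median 0.13). Alox5ap, a leukocyte gene of leukotriene synthesis, was at 0.984 ± 0.834 against 0.425 ± 0.265 CPM, and its estimate of -1.16 was -0.55 without Flox 3. Gstcd was at 3.19 ± 0.200 against 3.53 ± 0.883 CPM, and its estimate of 0.19 was 0.00 without LKO 1.

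Other conjugation enzymes had 9 of 13 estimates above 0 (median 0.10, or -0.02 without Flox 2 and 3). The methyltransferases Tpmt, of thiopurines, and Hnmt, of histamine, were at 43.4 ± 15.5 against 76.3 ± 24.5 CPM and 17.9 ± 5.60 against 26.7 ± 2.69 CPM (log2 fold changes 0.86 ± 0.27 and 0.61 ± 0.20, unadjusted p = 0.00949 and 0.00969). Without Flox 2 and 3 these estimates were 0.58 and 0.35. Among sensors and liver regulators 5 of 13 were above 0 (median -0.02). The Ah receptor gene Ahr was at 26.4 to 44.4 CPM in Flox and 17.0 to 25.2 CPM in LKO without overlap (-0.64 ± 0.15, or -0.45 without Flox 2 and 3), beside 0.617% of all genes that were lower without overlap. Rxra, the partner of CAR and PXR, was at 433 ± 71.9 against 366 ± 23.9 CPM (-0.20 ± 0.12, or -0.05 without Flox 2 and 3). The sensors' target genes outside the 3 families had 11 of 14 estimates above 0 (median 0.15), against 5 of 14 without Flox 2 and 3 (median -0.06). The PXR target Cyp3a11 was at 2522 ± 1402 against 4300 ± 814 CPM and the carboxylesterase Ces2a at 277 ± 80.9 against 376 ± 67.9 CPM (0.80 ± 0.38 and 0.48 ± 0.22, or 0.37 and 0.24 without Flox 2 and 3). All 16 acute phase genes had estimates below 0 (median -1.61, or -0.47 without Flox 2 and 3), with Serpina3n at 1240 ± 1071 against 352 ± 63.1 CPM and Saa2 at 5426 ± 7432 against 102 ± 97.6 CPM. Each of these named genes had an edgeR adjusted p of at least 0.652 (mean ± SD, n = 5 per group).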

How the data were processed

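Raw counts for each Ensembl gene were deposited, 1 column per library, per the file headers. Tools named in the submitters' processing notes are STAR 2.5.1a, featureCounts 1.4.6-p5, Subread and bcl2fastq, with GRCm38 as the build. The sources used here do not say how strand, shared exons or multi-mapping reads were handled. Of all counts between 1 and 20, 70.4% were even, against 49.9% of counts over 1000, so low counts may not be independent reads, and why was not tested. LKO columns are numbered 1 to 5 and LKO titles 6 to 10, so LKO libraries are called by column number.

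After 287 repeated lines were dropped, genes passing edgeR's filterByExpr (edgeR 4.0.16, R 4.3.3) were fitted with TMM factors (0.963 to 1.04) by the robust quasi-likelihood F test, LKO against Flox, two-sided, with no covariate. SE were derived from the F statistic. Alternatives used DESeq2 1.42.0, limma 3.58.1 (voom with quality weights), other scalings, no filter, each library left out, Flox 2 and 3 left out, and column number as a block. On simulated counts edgeR recovered 25 of 46 genes changed 2-fold and 42 of 47 changed 4-fold, with 13 false calls among 15617 genes. Each gene was drawn independently there. The simulation therefore lacks shifts shared by many genes of a library, as seen in Flox 2 and 3. No 2 libraries agreed within sampling noise (mean chi-square per gene 41.6 to 775 over 45 pairs). No label says that libraries come from separate mice, so p-values measure the spread between libraries only.

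Positions, lengths and shared 50-base windows come from GENCODE M21 (GRCm38), in which all 55 members were found, and promoters from RefSeq (47 of 55 members). The members, the 9 other lists and the left-out libraries were chosen with earlier results of these data known. The rule named the marker genes, the 4 most abundant and the 4 with the smallest p in each family, members without overlap, the 2 most variable of each family at 1 CPM or more, and up to 2 per other list. Gstp2, Gstt1 and others outside it were chosen after their values were seen.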

Additional observations from a re-analysis of the deposited data

Results flagged for a closer look

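Among 46 groups of 5 libraries (23 named members), 3 held a library far from the others by Dixon's ratio (above 0.71), and chance flags about 1 in 20 groups. LKO 5 had the highest Sult1c2 level of its group (9.32 CPM, next 4.50 CPM) and the highest Ugt1a9 level (22.3 CPM, next 13.9 CPM). LKO 1 had the highest Sult5a1 level of its group (11.4 CPM, next 8.19 CPM). The log2 fold change was 0.76 for Sult1c2 and 0.80 for Ugt1a9 without LKO 5.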

How the results depend on the processing

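The number of members past the adjusted threshold was 0 under every alternative run. The number of all genes past it was 0 except with DESeq2 (11 genes, none of them a member). DESeq2 gave an adjusted p to 8184 genes, of which 0.134% passed, and to only 39 of the 46 tested members. At an unadjusted p under 0.05, DESeq2 called 1380 genes. Members higher at an unadjusted p under 0.05 numbered 4 of 46 (3.17% of all genes), against 7 with limma-voom (3.57% of all genes), 2 without Flox 2 and 3 (1.67%), 11 with the column number as a replicate block (4.89%), and 2 to 12 with 1 library left out: 2 without Flox 2 (2.9%) or Flox 3 (1.68%), 8 without Flox 5 (5.25%) and 12 without Flox 1 (4.2%). Same-numbered columns of the 2 groups had correlations of their deviations of 0.0736 to 0.354. Columns 1 (0.354, best other 0.0571) and 5 (0.288, best other 0.279) matched their own number best, whereas columns 2, 3 and 4 did not. The LKO titles carry other numbers, so these values do not settle whether same-numbered columns belong together. Without Flox 2 and 3, 14 of the 46 tested members turned sign (10 GST, 3 UGT and 1 SULT), among them the named Gsta3 (-0.084), Gstm1 (-0.086), Sult1a1 (-0.013), Gstz1 (-0.057) and Ugt1a5 (-0.069). With 1 library left out, 6 of the 46 turned sign at least once: Gstk1, Gstm2, Gstp3, Sult1e1, Ugt1a2 and, of the 23 members named by rule, Gstz1 (-0.022 to 0.12). Sult1e1 also turned sign with limma-voom. The cause was not tested. The GST median also turned sign without Flox 2 and 3 (-0.03). Each family median moved by less than the SD between libraries (GST 0.37, UGT 0.31, SULT 0.23, log2 scale) in the settings run. That SD includes Flox 2 and 3. It is above the GST median (0.22) and near the UGT (0.32) and SULT (0.27) medians, so it cannot show that the medians are stable. In simulated counts 9 of 50 genes changed 1.5-fold were called, which limits what these libraries can show.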
